A study of Mus musculus with 21 samples.

Results

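Fibro-adipogenic progenitors (FAPs) are the resident mesenchymal cells of skeletal muscle, and the genes described here are 10 of their identity markers: Pdgfra, Ly6a, Cd34, Dpp4, Pi16, Hic1, Tcf7l2, Osr1, Gli1 and Vcam1. They were taken by symbol from the deposited table of raw counts. All 10 were found among its 55341 genes, and 8 of them passed a filter on low counts that 15240 genes passed. Dpp4 and Gli1 did not pass it and are described by their counts alone.

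Every mouse in the series, controls included, carried Prdm16Flox/Flox alleles. The group labelled Prdm16 also carried PdgfrαCre-ERT/+, so the inducible recombinase is driven from Pdgfra, itself one of the 10 markers, while the group labelled WT was Pdgfrα+/+. Adult mice of both groups received tamoxifen for 5 days, waited 7 days, had muscle injured by cardiotoxin and gave sorted FAPs 5 days after injury. The cells were grown for 4 to 5 days before collection, so the values describe cultured cells of regenerating muscle. RNA was read in 3 WT and 2 Prdm16 libraries. The deposited domain lists cover H3K9me2, a modification of silent chromatin, in 3 libraries of each label and the nuclear lamina protein LaminB1 in 1 of each. Whether replicates are separate animals is not stated, so p-values measure only the spread between these libraries, part of which may be technical.

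In muscle, FAPs are recognised by the PDGF receptor Pdgfra and the surface antigens Ly6a (Sca1) and Cd34, and they lack the endothelial marker Pecam1, the leukocyte marker Ptprc and the myogenic integrin Itga7. Hic1, Tcf7l2, Osr1 and Gli1 are transcription factors that mark mesenchymal progenitors or subsets of them. Pi16 and Dpp4 mark fibroblasts of the adventitia and fascia in many organs, and Vcam1 appears on a subset of FAPs after injury.

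RNA libraries held 5839587 to 10657791 counts. The counts of Prdm16 itself were 171, 94 and 59 in WT 1, 2 and 3 against 91 and 86 in Prdm16 1 and 2, so its level did not separate the labels; the count includes transcript outside the floxed part and checks no deletion. The authors' deposited comparison did not follow the labels of the count table. The p-values were compared over the 14523 genes with a deposited p-value and a mean scaled count of at least 10. DESeq2 gave p-values within 1% of theirs for 14523 of 14523 when WT 3 and Prdm16 2 were taken as the Prdm16 pair. With the pair as labelled it did so for 167 (1.15%). Library Prdm16 2 held 15 counts of Xist against 3483 to 4652 elsewhere, and 372 of the Y-linked gene Ddx3y against 0 or 1, so it alone of the 5 has the pattern of male cells and is not a repeat of the animals behind Prdm16 1. Libraries are therefore named by their labels, and each fold change says which grouping it follows.

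The defining FAP markers Pdgfra, Ly6a and Cd34 each had at least 2189 counts in every library. Endothelial and leukocyte RNA was low. Pecam1 had 1 to 4 counts and Ptprc 1 to 3 in each library, Tie1, Adgre1 and Cd3e had 0 in all 5, and the summed level of 8 endothelial markers was 4.91 to 6.31 CPM (counts scaled to library size) in WT and 5.51 to 7.59 CPM in Prdm16. Within that sum Cdh5 had 1.35, 1.58 and 2.80 CPM in WT and 5.49 and 4.26 CPM in Prdm16. Emcn went the other way, with 1.83, 3.44 and 0.84 CPM in WT and 0.58 and 0.53 CPM in Prdm16. The 9 leukocyte markers summed to 6.31 to 8.30 CPM in WT and 5.84 to 9.95 CPM in Prdm16, and Cd68 alone had 2.99 to 4.44 CPM. Myogenic RNA was present: Itga7, on which a FAP sort usually selects against, had 110 to 360 counts, and 9 myoblast markers summed to 135, 181 and 475 CPM in WT 1, 2 and 3 and 371 and 381 CPM in Prdm16 1 and 2. Pax7 had 0, 0 and 11 counts in WT and 1 in each Prdm16 library.

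By the labels, none of the 8 tested markers passed the test of genotype. edgeR called 0 of them at a Benjamini-Hochberg adjusted p under 0.05, where 0% of all 15240 genes were called. DESeq2 and limma-voom also called 0 members. At an unadjusted p under 0.05 each tool had 1 member, Cd34, which was higher; by edgeR that was so for 1.11% of all genes. Of the 8 markers 7 had negative log2 fold changes, with a median of -0.40 against 0.00053 over all genes tested. In the plot of levels by library, the spread within the WT label is wide for most markers.

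**Figure D1:**
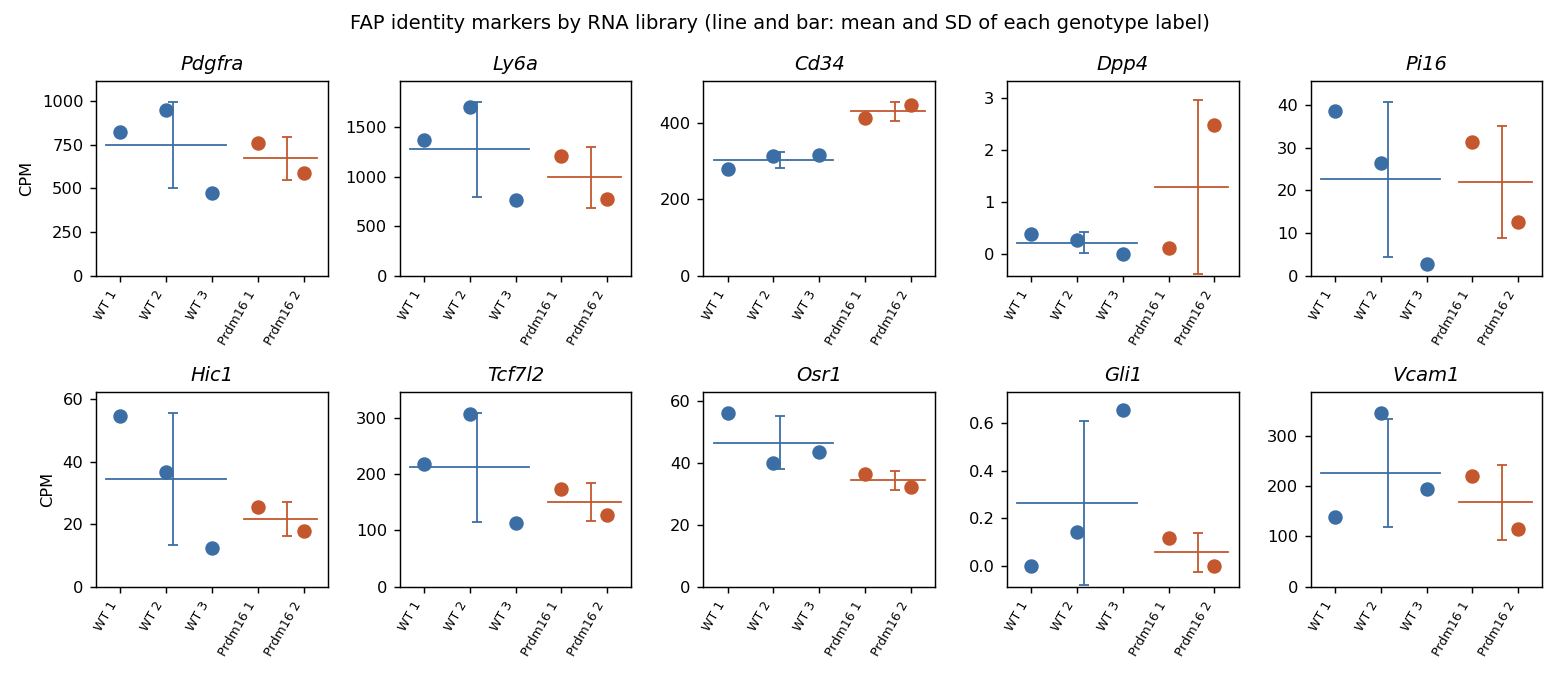
Level in CPM (vertical axis, linear, a scale per gene) of the 10 markers in each RNA library, with the mean (line) and SD (bar) of the 3 libraries labelled WT (blue) and the 2 labelled Prdm16 (orange). Pdgfra, Ly6a, Pi16, Hic1 and Tcf7l2 are lowest in WT 3 and Prdm16 2, while Cd34 is higher in both Prdm16 libraries than in all WT libraries.

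The receptor Pdgfra, which binds PDGF ligands and is the gene most used to define FAPs, lies at chr5:75151322-75198206 (GRCm38.p6, as for all positions here). It had 822, 950 and 471 CPM in WT 1, 2 and 3 and 761 and 587 CPM in Prdm16 1 and 2. WT 3 was the lowest library and WT 2 the highest, so the labels overlapped. The means were 748 ± 248 CPM (SD, n = 3) and 674 ± 123 CPM (SD, n = 2), a log2 fold change by the labels of -0.15 ± 0.30 (SE, edgeR, adjusted p = 0.9996). Its sign depended on single libraries, at 0.060 without WT 2 and 0.037 without Prdm16 2. Whether the Cre allele at this gene alters its count was not tested.

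Ly6a encodes a small glycolipid-anchored antigen and lies at chr15:74994877-74998031. It had 1366, 1703 and 760 CPM in WT and 1213 and 772 CPM in Prdm16. Again WT 3 and Prdm16 2 were the low libraries, close to each other and below the other 3. By the labels its log2 fold change by the labels came to -0.36 ± 0.36 (SE, edgeR, adjusted p = 0.9996). Ly6 genes are a family of similar sequences, so reads may have been divided between copies.

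Cd34, a sialomucin of progenitors and vessels at chr1:194938821-194961292, followed another order. It had 279, 314 and 317 CPM in WT and 413 and 448 CPM in Prdm16. Both Prdm16 libraries lay above all 3 WT libraries, which held for 1 of the 8 tested markers and for 8.83% of all genes. The log2 fold change by the labels came to 0.51 ± 0.17 (SE, edgeR, unadjusted p = 0.017, adjusted p = 0.9996). With 1 library left out in turn it was 0.44 to 0.55. Markers of other cell types were also higher in sum in Prdm16: 12 sarcomere genes summed to 313, 516 and 956 CPM in WT and 1092 and 1207 CPM in Prdm16, with 8 of 12 above all WT libraries, and 7 tenocyte genes to 54.7, 58.1 and 47.5 CPM against 91.6 and 185 CPM. Of 6 tested tenocyte genes 2 lay above all WT libraries and 1, Scx, below, and Thbs4 made up most of the sum. Their part in the Cd34 level was not tested.

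Pi16, a secreted or membrane-bound peptidase inhibitor-like protein at chr17:29318796-29328903, varied most among the 8. It had 400, 184 and 30 counts in WT and 268 and 71 in Prdm16, or 38.5, 26.4 and 2.80 CPM against 31.3 and 12.6 CPM. The highest library was 13.7 times the lowest, and both were labelled WT. By the labels the fold change had no stable sign: it was -0.03 ± 1.07 (SE) by edgeR (adjusted p = 0.9996), 0.65 by limma-voom and 0.024 with upper-quartile scaling. Without WT 1, WT 2 or Prdm16 2 it was 0.61, 0.099 and 0.49.

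Dpp4, a membrane peptidase that marks the same adventitial fibroblasts as Pi16, lies at chr2:62330073-62412315. It had 4, 2 and 0 counts in WT and 1 and 14 in Prdm16. Its 14 counts in Prdm16 2 correspond to 2.49 CPM (exact 95% Poisson interval 1.36 to 4.17), above the upper bounds of 0.65 to 1.04 CPM in the 3 other libraries with counts and the 0.28 CPM that 0 counts allow in WT 3 (3 counts). Those intervals cover counting error only, and Prdm16 1 did not share the higher value. Where Dpp4 was highest, Pi16 was second lowest. Without the filter on low counts, edgeR put Dpp4 at a log2 fold change of 2.39 ± 1.01 (SE, adjusted p = 0.924), a value that rests on that 1 library.

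Among the transcription factors, Hic1, a zinc-finger repressor that marks quiescent mesenchymal progenitors, lies at chr11:75161377-75170255. It had 54.5, 36.6 and 12.3 CPM in WT and 25.3 and 17.8 CPM in Prdm16. WT 3 was lowest and Prdm16 2 next, and the label means of 34.5 ± 21.2 (SD, n = 3) and 21.5 ± 5.35 CPM (SD, n = 2) overlapped. The log2 fold change by the labels came to -0.67 ± 0.59 (SE, edgeR, adjusted p = 0.9996). Hic1 overlaps Smg6, which had 188, 146 and 108 CPM in WT and 156 and 158 CPM in Prdm16. The RNA reads do not mark strand, so strand could not separate Hic1 reads from those of Smg6. The part of Smg6 reads in the Hic1 count was not tested.

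Tcf7l2, a partner of beta-catenin in Wnt signalling and a marker of muscle connective tissue fibroblasts, lies at chr19:55741797-55933659. It had 217, 307 and 112 CPM in WT and 174 and 127 CPM in Prdm16. The order of libraries was that of Pdgfra and Ly6a, with WT 2 highest and WT 3 lowest. By the labels the log2 fold change by the labels came to -0.49 ± 0.41 (SE, edgeR, adjusted p = 0.9996).

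Osr1, a zinc-finger factor of embryonic limb mesenchyme that returns in FAPs after injury, lies at chr12:9574442-9581500. It had 56.2, 40.0 and 43.3 CPM in WT and 36.4 and 32.1 CPM in Prdm16. Both Prdm16 libraries lay below all 3 WT libraries, which held for 1 of the 8 tested markers and for 8.96% of all genes. The log2 fold change by the labels came to -0.44 ± 0.24 (SE, edgeR, unadjusted p = 0.10, adjusted p = 0.9996), and it was negative in the fit by the labels and in every alternative run.

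Gli1, the transcriptional effector and target of Hedgehog signalling, lies at chr10:127329882-127341579 and was at the edge of detection. It had 0, 1 and 7 counts in WT and 1 and 0 in Prdm16. The 7 counts of WT 3 give 0.65 CPM (exact 95% Poisson interval 0.26 to 1.35), while 0 counts in WT 1 and Prdm16 2 allow up to 0.29 and 0.53 CPM (3 counts). A difference between the labels was not detectable at this depth.

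Vcam1, an adhesion molecule that binds the integrin of Itga4 and Itgb1, lies at chr3:116110020-116129688. It had 140, 347 and 194 CPM in WT and 221 and 116 CPM in Prdm16. WT 2 was highest and Prdm16 2 lowest, with WT 1 close to the low end. The log2 fold change by the labels came to -0.43 ± 0.45 (SE, edgeR, adjusted p = 0.9996), and 0.015 without WT 2.

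Across the 8 tested markers, WT 3 was the lowest library for 5 and Prdm16 2 for 2, and WT 2 was the highest for 4 and WT 1 for 3. The SD over the 5 libraries was 0.40 for Pdgfra, 0.51 for Ly6a, 0.59 for Tcf7l2, 0.61 for Vcam1, 0.83 for Hic1 and 1.45 for Pi16 on the scale of log2(CPM + 0.5). It was 0.29 for Cd34 and 0.30 for Osr1, against a median of 0.33 over all genes tested. Because these are bulk libraries, fewer cells of a type and less RNA per cell cannot be told apart.

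The authors' deposited table, whose Prdm16 pair is the libraries labelled WT 3 and Prdm16 2, called 5 of the 10 markers down, with limits per the file name of 0.5 on the log2 scale and 0.1 on the adjusted p. They were 5 of the 6 members with an adjusted p in that table, where 5.58% of such genes were called down. The authors' deposited table gave log2 fold changes of -1.88 for Pi16 (adjusted p = 0.0034), -1.17 for Hic1 (adjusted p = 0.0095), -0.80 for Tcf7l2 (adjusted p = 0.013), -0.78 for Ly6a (adjusted p = 0.0038) and -0.54 for Pdgfra (adjusted p = 0.086). In the authors' deposited table Vcam1 was at -0.23 (adjusted p = 0.661), and Cd34 (0.08) and Osr1 (-0.09) had no adjusted p. These values were smaller in size than unshrunken DESeq2 fold changes of the same grouping, which were -2.12 for Pi16, -1.40 for Hic1, -0.98 for Tcf7l2, -0.91 for Ly6a and -0.69 for Pdgfra.

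The same grouping fitted by edgeR, which exchanges the labels of WT 3 and Prdm16 1, called 0 of the 8 markers at an adjusted p under 0.05, while 182 genes were called in all and 1.04% of genes were called lower. Ly6a came nearest with a log2 fold change of -0.90 ± 0.21 (SE, edgeR, adjusted p = 0.089). That value is under the authors' limit of 0.1 on the adjusted p. The counts of called markers here and in the authors' deposited table therefore rest on unlike limits. Pi16 had -2.12 ± 0.58 (SE, edgeR, adjusted p = 0.235) and Hic1 -1.38 ± 0.35 (SE, edgeR, adjusted p = 0.139). Tcf7l2 had -0.96 ± 0.25 (SE, edgeR, adjusted p = 0.154) and Pdgfra -0.67 ± 0.20 (SE, edgeR, adjusted p = 0.230). At an unadjusted p under 0.05, that edgeR fit held 5 of the 8 markers and 1500 of all 15240 genes. Without WT 3 and Prdm16 1, edgeR by the labels called 0 members, with Ly6a at -1.01 and Pi16 at -1.39; that fit has 1 Prdm16 library, assumed to vary like the 2 WT libraries. The labelled and the authors' comparisons use the same 5 libraries, so they are not independent of each other.

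**Figure D2:**
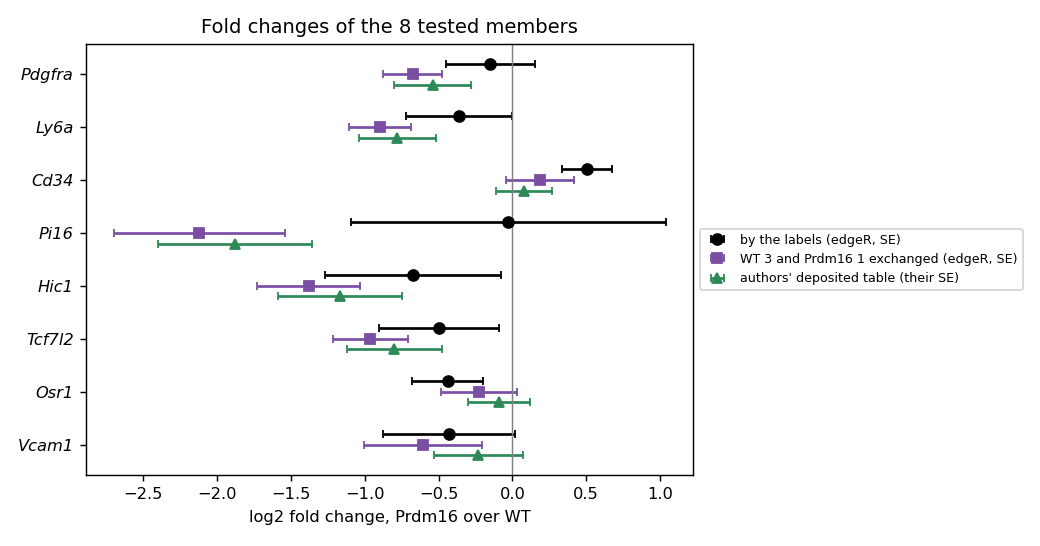
Log2 fold change of Prdm16 over WT (horizontal axis) for the 8 tested markers, by the labels (circles), with WT 3 and Prdm16 1 exchanged (squares), both from edgeR with SE, and in the authors' deposited table (triangles, with the authors' SE). Pi16 is at -0.03 by the labels and -2.12 with the exchange, and Cd34 at 0.51 and 0.19.

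The 5 markers that the authors called all lay lower in WT 3 and Prdm16 2 than in the other 3 libraries. Those are the libraries of the authors' pair, so this order comes with their grouping and is not a separate result. Both libraries lay below the other 3 for 5 of 8 tested markers and for 14.1% of all genes. The opposite order, both above, held for 0 of 8 and for 13.3% of all genes. Other lists were high or low in the same 2 libraries. The 10 interferon genes summed to 152 CPM in WT 3 and 206 CPM in Prdm16 2, against 3191, 3589 and 2870 CPM in WT 1, WT 2 and Prdm16 1, and all 10 were below the other 3 libraries. The 8 hypoxia genes summed to 3297 and 4106 CPM against 1351 to 2250 CPM, with 7 of 8 above. Myoblast markers were high in WT 3 and in both Prdm16 libraries (475, 371 and 381 CPM). The part of these programmes in the marker levels was not tested.

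**Figure D3:**
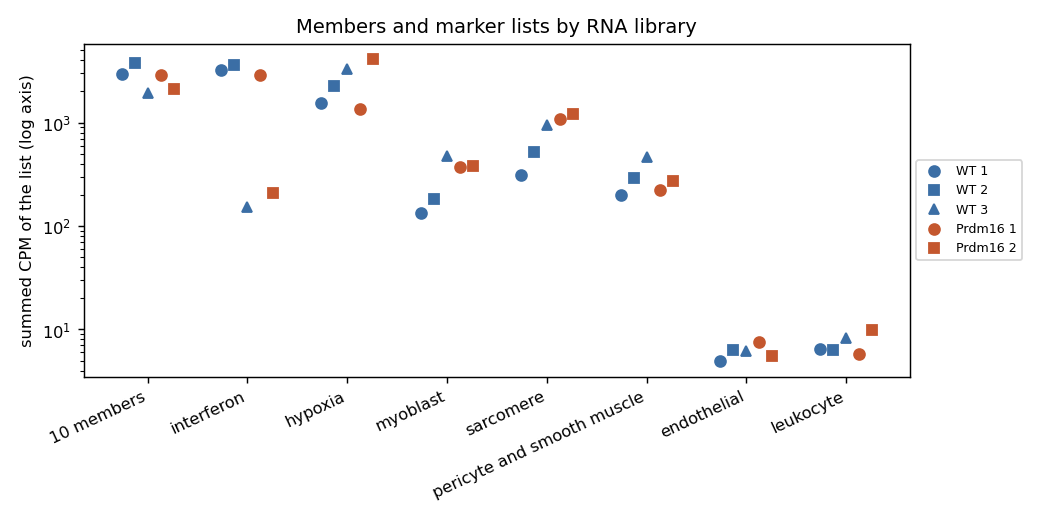
Summed CPM (vertical axis, log scale) of the 10 markers and of 7 lists of genes in each RNA library, WT in blue and Prdm16 in orange. The markers sum to 1914 CPM in WT 3 and 2115 CPM in Prdm16 2 against 2875 to 3724 CPM elsewhere, and the interferon genes to 152 and 206 CPM against 2870 to 3589 CPM.

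Promoters were read as a description of the markers, and their part in the marker levels was not tested. RefSeq promoter sequences of GRCm38.p6 (250 bases before to 50 after a start) were matched for 6 of the 10 members. Ly6a, Osr1, Gli1 and Vcam1 had no entry. The 4 matched genes among the 5 that the authors called are shown 5′ to 3′ on the gene's strand, with CpG dinucleotides in capitals, because their CpG content differs widely. They lie at chr5:75152001-75152300 (plus strand) for Pdgfra, chr17:29318632-29318931 (plus) for Pi16, chr11:75170206-75170505 (minus, the first of 2 starts) for Hic1 and chr19:55741560-55741859 (plus, the first of 2) for Tcf7l2. The Pdgfra stretch lies wholly inside the gene body, which begins at 75151322, so it does not describe that first base.
Pdgfra: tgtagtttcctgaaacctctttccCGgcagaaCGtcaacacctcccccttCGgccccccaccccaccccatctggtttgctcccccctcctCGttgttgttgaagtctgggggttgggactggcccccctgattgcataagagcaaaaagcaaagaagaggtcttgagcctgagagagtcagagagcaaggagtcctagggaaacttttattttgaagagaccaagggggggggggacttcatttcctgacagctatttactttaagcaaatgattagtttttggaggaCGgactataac
Pi16: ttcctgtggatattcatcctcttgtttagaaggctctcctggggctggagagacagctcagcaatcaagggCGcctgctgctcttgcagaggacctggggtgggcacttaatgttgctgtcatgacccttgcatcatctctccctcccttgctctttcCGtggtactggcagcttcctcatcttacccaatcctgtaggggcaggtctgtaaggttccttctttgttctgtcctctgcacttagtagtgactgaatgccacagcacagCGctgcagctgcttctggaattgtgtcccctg
Hic1: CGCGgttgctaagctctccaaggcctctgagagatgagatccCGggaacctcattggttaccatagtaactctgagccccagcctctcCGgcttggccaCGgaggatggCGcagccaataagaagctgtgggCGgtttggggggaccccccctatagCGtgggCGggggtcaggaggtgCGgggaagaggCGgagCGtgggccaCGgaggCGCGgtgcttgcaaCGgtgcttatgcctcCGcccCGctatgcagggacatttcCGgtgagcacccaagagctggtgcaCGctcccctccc
Tcf7l2: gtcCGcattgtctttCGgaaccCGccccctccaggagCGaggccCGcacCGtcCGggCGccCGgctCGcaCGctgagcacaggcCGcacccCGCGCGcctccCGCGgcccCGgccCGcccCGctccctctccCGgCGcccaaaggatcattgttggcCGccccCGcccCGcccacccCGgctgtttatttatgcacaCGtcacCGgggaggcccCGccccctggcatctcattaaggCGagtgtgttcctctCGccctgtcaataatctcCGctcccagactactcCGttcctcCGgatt

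Pi16 held 3 CpG and an observed over expected CpG ratio of 0.14, higher than in 19.6% of the 32851 promoters in the table. Pdgfra held 5 with a ratio of 0.26, higher than in 36.5% of promoters. At its first start Hic1 held 20 with a ratio of 0.64, higher than in 66.9%, and Tcf7l2 34 with a ratio of 1.01, higher than in 94.4%. The second start of Hic1 held 29 with a ratio of 0.65 (67.4%), and that of Tcf7l2 held 7 with a ratio of 0.53 (60.1%). Of the matched markers that the authors did not call, Cd34 had a ratio of 0.37 and Dpp4 0.26. The median over all promoters was 0.38.

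Letters of known motifs were searched on both strands in the 8 promoters of the 6 matched members. The interferon-stimulated response element, searched as GAAA, any 2 bases and GAAA, was found in 1, that of Dpp4, and in 3.44% of all promoters of this length. The letters of the TATA box (TATAAA) were found in Dpp4, at -227 from the start, and in 13.6% of all promoters. They were also found in the second promoter of Tcf7l2, at -242 and on the opposite strand. Both matches lie near the far end of the searched stretch. No member promoter held the GLI site GACCACCCA (0.253% of all) or the TCF site CTTTGAT (3.73% of all). The searched motifs do not overlap each other in these promoters, and a match is a description of letters only.

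Genes around the markers were read from lists by role. By the labels edgeR called 0 genes in each of these lists. For PDGF signalling, 13 of 14 genes were tested, with 7 positive and 6 negative log2 fold changes and a median of 0.018, and the authors called none. The ligand gene Pdgfc had 15.5, 13.5 and 23.0 CPM in WT and 17.5 and 33.4 CPM in Prdm16, and Plat, the protease that activates Pdgfc protein, 184, 180 and 149 CPM against 271 and 182 CPM. For Hedgehog signalling, 13 of 16 were tested with a median of 0.10. The authors' deposited table had Gas1, a Hedgehog co-receptor, down (-1.58) and Hhip, a decoy that binds Hedgehog ligands, up (0.85). Ptch1, a receptor and pathway target, had 7.70, 9.17 and 7.84 CPM in WT and 8.52 and 14.2 CPM in Prdm16.

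For Wnt and TCF signalling, 20 of 24 genes were tested with a median of -0.05, and 3 lay above and 1 below all WT libraries, against 8.83% and 8.96% of all genes. The authors' deposited table had 1 of them down, the Dickkopf family gene Dkk3 (-1.78), which had 169, 127 and 35.1 CPM in WT and 128 and 43.9 CPM in Prdm16. By the labels Dkk3 had a log2 fold change of -0.36 ± 0.80 (SE). Ctnnb1, encoding beta-catenin, had 205, 149 and 120 CPM in WT and 180 and 230 CPM in Prdm16, an order unlike that of its partner Tcf7l2.

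In the Ly6 and uPAR family, 9 of 13 genes were tested, 6 with negative log2 fold changes and a median of -0.29. The authors' deposited table had Ly6e (-1.75) and Ly6c1 (-0.80) down with Ly6a, and the urokinase receptor Plaur up (0.73). Ly6e had 1033, 458 and 198 CPM in WT and 435 and 148 CPM in Prdm16. Ly6c1 had 288, 265 and 137 CPM in WT and 206 and 131 CPM in Prdm16, so its low libraries were those of Ly6a. Plaur was high in those 2 libraries, with 111 and 117 CPM against 49.0 to 67.4 CPM in the others.

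Relatives of the other members gave mixed values. Of the sialomucins and selectins, 6 of 8 were tested (median 0.12), and the authors' deposited table had Selp up (1.06). Of the dipeptidyl peptidases and Dpp4 partners, 10 of 11 were tested (median 0.04), and the authors' deposited table had Fap, the fibroblast activation protease, down (-0.94). Fap had 29.0, 33.8 and 6.81 CPM in WT and 26.7 and 19.0 CPM in Prdm16. Of the CAP superfamily of Pi16, 5 of 8 were tested (median 0.47) and the authors called none. R3hdml had 0.87, 2.15 and 1.49 CPM in WT and 4.90 and 4.26 CPM in Prdm16.

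Of the 5 relatives of Osr1 and Hic1, all were tested (median -0.016). Osr2, the paralog of Osr1, had 32.1, 35.5 and 7.28 CPM in WT and 18.8 and 9.24 CPM in Prdm16, and the authors' deposited table had it down (-1.67). Osr1 did not share that order, since its WT 3 value was the second highest of the 5. Hic2, the paralog of Hic1, had 1.44, 1.00 and 0.65 CPM in WT and 2.45 and 2.49 CPM in Prdm16. Of 11 partners and relatives of Vcam1, 10 were tested (median 0.19) and the authors called none. Itga4, which encodes a chain of the Vcam1 receptor, had 1.92, 1.58 and 2.61 CPM in WT and 3.27 and 4.97 CPM in Prdm16.

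Genes of the adventitial state that Pi16 and Dpp4 mark were read next. Of 16, 13 were tested, and 10 had positive log2 fold changes by the labels with a median of 0.14. In WT 3 and Prdm16 2, 0 of the 13 lay below the other libraries and 4 above, against 14.1% and 13.3% of all genes. The authors' deposited table had Sema3c, a semaphorin (1.26), and Ugdh, which makes the sugar precursor of hyaluronan (0.59), up. Sema3c had 100, 80.3 and 180 CPM in WT and 71.8 and 264 CPM in Prdm16. Cd248, a sialomucin of fibroblasts, had 353, 96.0 and 109 CPM in WT and 71.9 and 94.1 CPM in Prdm16, a spread set by WT 1.

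Other mesenchymal progenitor genes were read in the same way. Of 32, 29 were tested, with a median of 0.013 by the labels. The authors' deposited table had 5 down and 0 up, of 24 with an adjusted p (5.58% of all such genes were down): Hsd11b1 (-1.57), which regenerates glucocorticoid, G0s2 (-1.21), an inhibitor of lipolysis, the collagens Col6a1 (-1.04) and Col15a1 (-0.92), and the peptidase Mme (-0.94). In WT 3 and Prdm16 2, 9 of the 29 lay below the other libraries and 3 above, against 14.1% and 13.3% of all genes. Mme had 36.0, 60.8 and 6.25 CPM in WT and 29.2 and 26.3 CPM in Prdm16. The matrix gene Col1a1, a general fibroblast product, did not share the order, with 1681, 1708 and 1155 CPM in WT and 1597 and 2296 CPM in Prdm16. Lum, a small proteoglycan, was low in WT 3 alone (8.12 CPM, against 38.3 to 94.9 CPM).

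The genes whose pattern over the 5 libraries was most like a marker's were found by the distance between centred profiles of log2(CPM + 0.5) among 10448 genes. For Ly6a the nearest was B2m, the light chain of MHC class I, at a distance of 0.08. B2m had 1434, 1776 and 749 CPM in WT and 1274 and 814 CPM in Prdm16. Bcl2l11, a promoter of apoptosis, and Fbxo36 followed, both at 0.11. For Pdgfra the nearest were Gmds (0.09), an enzyme of fucose synthesis, Kctd12b (0.09) and Zfp874b (0.11).

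For Pi16 the nearest was Igsf10 at 0.17, with 120, 89.2 and 11.2 CPM in WT and 109 and 45.8 CPM in Prdm16. The chemokine Ccl8 (0.33) and the acute-phase gene Saa3 (0.37) came next. Ccl8 had 129, 86.3 and 12.6 CPM in WT and 92.6 and 40.5 CPM in Prdm16. For Vcam1 the nearest genes, Cpb1 (0.37), Zbtb8a (0.49) and Mir99ahg (0.50), were farther away than those of Ly6a and Pdgfra. With 5 libraries such distances describe these libraries and were not tested.

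Domains of repressed chromatin were read over the 10 gene bodies. In the domain results, a number after WT or Prdm16 names a domain library. The labels do not link it to the RNA library of the same number. In no H3K9me2 library was 50% or more of a marker's body covered, while 2.62% to 4.80% of 13574 tested and located genes were. Pdgfra was the 1 marker touched, over 6.84% of its body in Prdm16 1, 26.0% in Prdm16 2 and 0% in Prdm16 3 and all WT libraries (exact two-sided permutation test, p = 0.4, smallest possible 0.1). Any overlap held for 3.82% to 6.09% of located genes in each H3K9me2 library. The touching domains began inside the gene, at 75195001 and 75186001, and ran to 75777000 and 75852000 on chromosome 5. In WT 1 and WT 2 the matching domains began at 75249001 and 75216001, past the gene's end by 50.8 and 17.8 kb, and in WT 3 and Prdm16 3 the nearest domains were 408 and 474 kb away.

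Osr1 differed in its distance to H3K9me2. The nearest domain was 1020.5 kb away in all 3 WT libraries and 24.5, 6.50 and 7.44 kb away in Prdm16 1, 2 and 3 (exact two-sided permutation test, p = 0.1, the smallest that 3 against 3 libraries allow). A domain closer in all 3 Prdm16 libraries than in any WT library held for 1 of the 10 markers and for 2.64% of located genes. The reverse held for 0 markers and 2.98% of genes. The close domains were not one region: those of Prdm16 1 and 2 began at 9606001 and 9588001, on the higher coordinates' side of Osr1, and that of Prdm16 3 ended at 9567000 on the other side. Their scores were low, with 23.6%, 23.6% and 32.8% of their library's domains scoring lower. Domains covered 575 to 841 Mb in all in the Prdm16 libraries and 635 to 1017 Mb in WT, so the labels overlapped.

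The other 8 markers, like Osr1, did not overlap an H3K9me2 domain in any library. Overlap was uncommon in general, at 3.82% to 6.09% of located genes per library. Distances over all located genes were not summarised. Distances to the nearest domain were 136 to 338 kb for Ly6a, 323 to 368 kb for Cd34, 469 to 559 kb for Vcam1, 695 to 875 kb for Tcf7l2, 407 to 1909 kb for Gli1, 791 to 3185 kb for Hic1 and 3233 to 7895 kb for Pi16. Dpp4 ranged from 47.1 to 2052 kb, with Prdm16 2, Prdm16 3 and WT 3 all under 60 kb. LaminB1 domains covered no part of any marker in either library, and touched 2.18% of located genes in WT and 0.869% in Prdm16. The nearest LaminB1 domain was 218 kb from Ly6a in WT and 575 kb in Prdm16, and 279 and 283 kb from Cd34 in Prdm16 and WT, with no replicates.

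**Figure D4:**
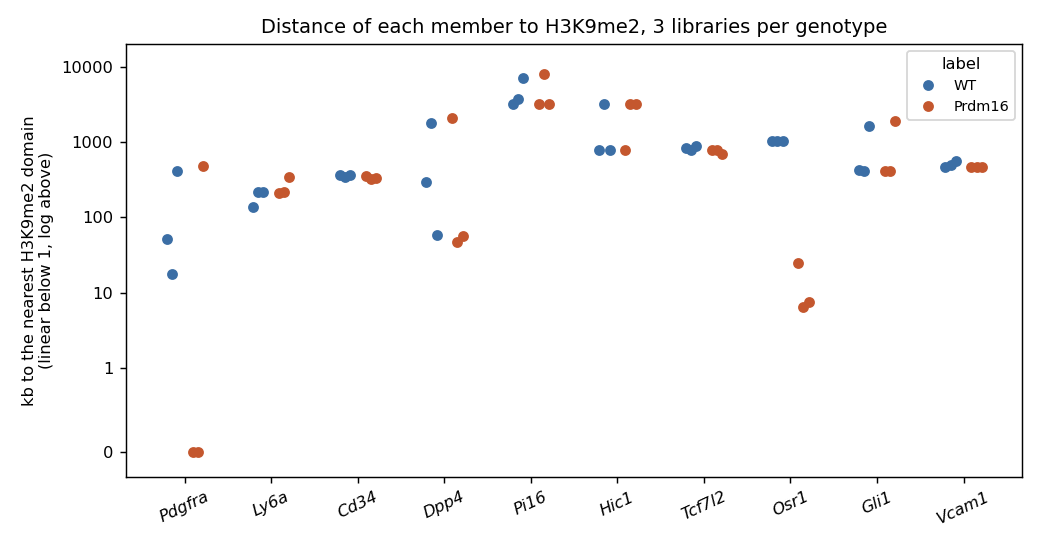
Distance in kb from each marker's gene body to the nearest H3K9me2 domain (vertical axis, linear below 1 kb and log above; 0 means overlap) in the 3 WT (blue) and 3 Prdm16 (orange) libraries. Osr1 has 1020.5 kb in all WT libraries and 6.50 to 24.5 kb in the Prdm16 libraries, and Pdgfra is at 0 in Prdm16 1 and 2.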

How the data were processed

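Per the labels, polyadenylated RNA was sequenced by SMART-seq2, which does not mark strand. The submitters' processing notes list, with no role for each, STAR 2.7, DESeq2 1.20, Bowtie 1.2.2 and featureCounts, and as builds GRCm38, mm10 and dm6. The authors deposited raw counts per gene, and a comparison table with a mean scaled signal, log2 fold changes with SE, p-values and adjusted p-values. Each deposited domain list holds positions and a score by the authors; how they scored was not given in the sources used here. Deposited scaled counts and the 8 input samples were not used here.

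Counts were filtered with edgeR's default expression filter, given TMM scaling factors, and fitted across all genes with edgeR 4.0.16 (robust quasi-likelihood, two-sided, Benjamini-Hochberg adjustment) in R 4.3.3. SE is the log2 fold change over the root of the F statistic. DESeq2 1.42.0 and limma 3.58.1 were alternatives. CPM refers to the scaled library size. No transcript lengths were used, so levels are not compared between genes. The fit was tested on simulated data with 1 fixed setting of the spread between libraries for every gene. That setting need not match the spread of these libraries. Domains were read over RefSeq gene bodies of GRCm38.p6 with Python 3.11.15, and coverage of 50% counted as covered.

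The members and lists were chosen with earlier results of these data known. Named genes are the 10 members and Prdm16, per list up to 3 genes by smallest p, the genes the authors called, per marker list up to 3 by level, and the 3 genes most like Pdgfra, Ly6a, Pi16 and Vcam1 with a mean of at least 5 CPM. Further genes, such as Pecam1, Ptprc, Pax7, Itga7, Smg6, Xist and Ddx3y, were named as checks after their values were seen. The motifs were chosen after the counts were seen.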

Additional observations from a re-analysis of the deposited data

How the results depend on the processing

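The count of members called, at an adjusted p under 0.05, was 0 under each alternative run counted here. DESeq2 in the authors' grouping was not among those runs, and its calls were not counted. The authors' deposited table, at its own limits, called 5 of the 10 markers down. The count of all genes called by the labels was 0 by edgeR, and 1 with DESeq2, 1 with upper-quartile scaling, 25 without a filter on low counts, 182 with WT 3 and Prdm16 1 exchanged and 93 without these 2 libraries, which leaves 1 Prdm16 library. It ranged from 0 to 4 when 1 library was left out, with 4 without Prdm16 1. With the replicate block it was 1, though the labels do not say that a replicate number is shared. The deviations of same-numbered libraries correlated at 0.22 for number 1 and -0.23 for number 2. The deviations of the Prdm16 libraries from their mean mirror each other. These correlations are therefore not independent and cannot show whether a number is shared. Of 104 member fold changes under other settings, 96 kept their direction and 8 did not. Pi16 turned to 0.65 with limma-voom and 0.024 with upper-quartile scaling. Leaving out 1 library gave -0.86 to 0.61 for Pi16, -0.39 to 0.060 for Pdgfra and -1.001 to 0.015 for Vcam1. Those of Ly6a (-0.75 to -0.062, nearest 0 without Prdm16 2), Hic1 (-1.07 to -0.18, nearest 0 without WT 1) and Tcf7l2 (-0.79 to -0.13, nearest 0 without WT 2) kept their sign but not their size. Markers with at least 50% of the body in H3K9me2 were 0, and 1 (Pdgfra) with any overlap; for LaminB1 they were 0 in every alternative run. No depth is known for the domain lists, and Dpp4 and Gli1 were limited by counts.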

Other observations

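Genes of fat cells were read beside the markers, since FAPs can become adipocytes. Of 7 adipocyte genes 4 were tested, and 3 of them lay lower in WT 3 and Prdm16 2 than in the other 3 libraries, against 14.1% of all genes. Adipoq, the adiponectin gene, had 37, 71 and 2 counts in WT and 47 and 9 in Prdm16. Fabp4, a fatty acid carrier, had 42.7, 41.1 and 13.1 CPM in WT and 29.9 and 24.2 CPM in Prdm16. Pparg, the adipogenic regulator, had 30.7, 46.6 and 18.6 CPM in WT and 33.5 and 29.3 CPM in Prdm16. Lep had 0 counts in all 5 libraries.

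Of 8 markers of activated fibroblasts, 0 lay below and 3 above the other libraries in WT 3 and Prdm16 2, against 14.1% and 13.3% of all genes. Fn1, fibronectin, was lowest in WT 3 (4470 CPM) and highest in Prdm16 2 (11520 CPM), and Lox, a collagen cross-linking enzyme, had 2518 CPM in Prdm16 2 against 859 to 1164 CPM elsewhere. Acta2, the contractile actin of myofibroblasts, had 356 CPM in WT 3 against 73.9 to 193 CPM elsewhere. Those 3 genes differed between WT 3 and Prdm16 2. Ccn2, a matricellular growth factor gene, was high in both, with 778 and 1044 CPM against 322 to 578 CPM, and so was Timp1, a protease inhibitor, with 639 and 788 CPM against 310 to 396 CPM. Tagln, a contractile-cell gene, had 33.2 and 11.2 CPM against 5.29 to 8.74 CPM.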
